A study of Mus musculus with 32 samples.

Results

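The livers described here came from mice on a methionine- and choline-deficient (MCD) diet, with and without a dual agonist of the glucagon-like peptide 1 receptor (GLP1R) and the glucagon receptor (GCGR), and had not undergone hepatectomy. They are 8 of the 32 livers of the series, chosen by label alone: 4 on MCD diet and 4 on MCD diet with the agonist. All animals were male C57/BL6 mice, and each array holds total RNA of an independent liver. Untreated animals received the MCD diet for 3 weeks. Treated animals received the same diet for 3 weeks and, after the first of them, the agonist at 4.4 mg/kg/day on alternate days for 2 weeks. The compound is not named beyond its receptors in the labels, no vehicle injection is described and no age is stated. The series also holds livers on a standard diet with and without the agonist. It further holds all 4 conditions 2 weeks after removal of 70% of the liver, with diet and agonist continued after surgery. Of these other groups, 2 pairs are used below for comparison.

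GLP1R and GCGR are G protein-coupled receptors that raise cyclic AMP. Glucagon acts directly on hepatocytes, where it drives glucose output and amino acid breakdown, whereas GLP1 acts mainly on the pancreas, gut and brain. Without methionine and choline the liver cannot make enough phosphatidylcholine to export fat, and mice on this diet develop steatosis, hepatocyte injury, inflammation and early fibrosis while losing weight, which limits the diet as a model of human fatty liver disease.

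Levels are log2 processed signals relative to the 75th percentile of their array, so that 0 is the level of the 75th percentile and 1 unit is a doubling. Differences are means with the agonist minus means without it, from 1 limma fit over all 8 groups of the series, and a gene rose or fell if its Benjamini-Hochberg adjusted p over the 21710 genes tested was under 0.05. The 75th percentile intensity was 442 to 564 on the MCD diet arrays and 211 to 467 on the agonist arrays, and 53.7% to 59.0% against 44.4% to 60.5% of spots were well above background. Correlations between arrays were 0.981 to 0.985 within MCD diet, 0.955 to 0.974 within MCD diet with agonist and 0.943 to 0.970 between them. The groups were hybridised on different slides, scanned in different sessions, so slide and treatment cannot be told apart in this contrast. In the deposited table of processed values the columns of MCD diet and of standard diet with agonist matched each other's arrays, so the scanner files were used. With the table's columns as labelled, 1617 genes were called and 30 of the 117 genes described here had the opposite sign.

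The livers carried the marks of their diet. Psat1, a serine synthesis enzyme, had levels of 2.15, 2.85, 2.51 and 1.89 on MCD diet and 1.63, 2.27, -1.51 and 1.77 on MCD diet with agonist, against means of -3.56 on standard diet and -2.92 on standard diet with agonist. Sult1e1, oestrogen sulfotransferase, and Cyp2b9, a cytochrome P450, had means of 5.10 and 1.86 on MCD diet and 4.53 and 3.28 with the agonist added, against -4.004 and -3.79 on standard diet. The mean of each MCD group lay above that of standard diet for all 3 genes. Glp1r lay near background, at -4.78, -4.05, -4.42 and -3.56 without and -2.62, -3.49, -2.47 and -2.68 with the agonist, and its difference of 1.39 ± 0.48 (SE) missed the threshold (adjusted p = 0.0517). Gcgr was high in all 8 livers, at 7.02, 7.57, 7.43 and 7.62 and 7.71, 8.21, 8.13 and 7.06, with a difference of 0.37 ± 0.24 (adjusted p = 0.319).

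With the agonist 1928 genes rose and 952 fell, together 13.3% of the genes tested (8.88% rose and 4.39% fell), and 18.4% had arrays that did not overlap between the groups (11.8% higher and 6.61% lower). The balance of rises and falls followed the scaling: 1192 rose and 1237 fell after quantile normalization, and 445 rose and 2181 fell when arrays were scaled to their median. The median difference over all genes was 0.15, 0.02 and -0.20 under the 3 scalings, and 394 genes rose and 911 fell under all of them. Many of the rises were dim: 161 were genes with a mean level below -4 and 599 genes between -4 and -2. Single livers mattered too: 1472 genes were called without agonist replicate 3 and 1818 without MCD diet replicate 4. The rule for naming genes gave 188, of which 151 were called and 67 were called in each of the 8 fits that left out 1 liver. The 117 of them described here were selected with their values known and held more often, with 50 of 89 called genes called in all 8 fits. Of the 54 gene lists, that of mitosis had the highest share of called members. The 8.88% of rises and 4.39% of falls over all genes are the background for the list counts below, and these shares move with the scaling.

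**Figure D1:**
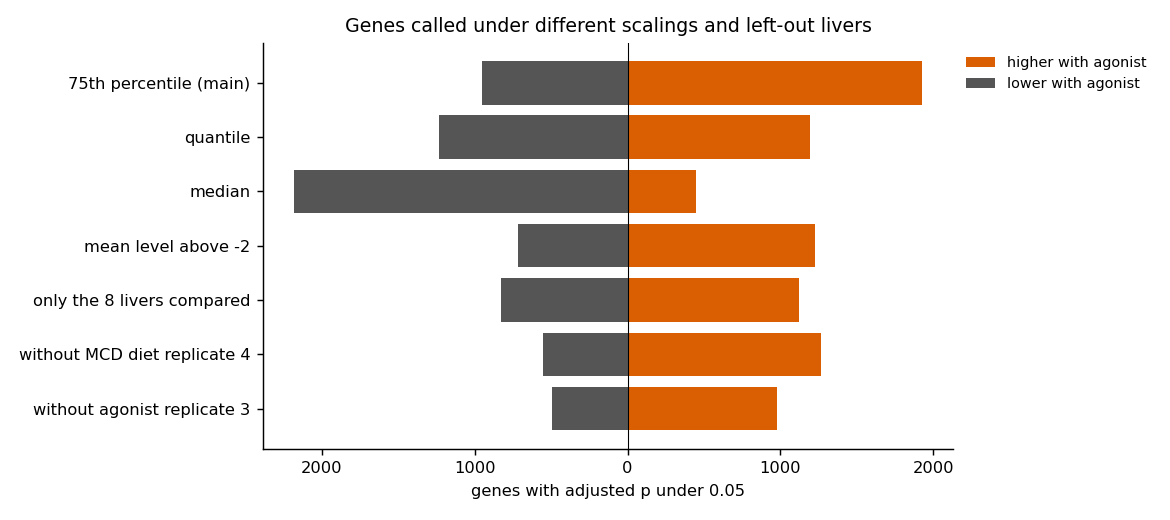
Number of genes with an adjusted p under 0.05 (x axis, higher with agonist to the right and lower to the left) for the main scaling, 2 other scalings, a minimum mean level, a fit of the 8 livers alone and the 2 left-out livers that lowered the count most. Rises outnumbered falls with the 75th percentile (1928 and 952), and falls outnumbered rises with the median (2181 and 445).

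Of 27 mitosis genes tested, 20 fell and none rose, against a background of 4.39% falls over all genes. All 27 had a difference below 0, with a median of -2.20 where the median of all genes was 0.15. A gene entered the test when its probe was above background in every liver of any 1 group. Members dim with the agonist could thus enter through the MCD diet livers, which favours falls. Of the 20 that fell, 13 were above background on every array of both groups compared. Among the 15 members with a mean level above -2, 13 fell. Cdc20, an activator of the anaphase-promoting complex, had levels of 2.80, 3.11, 2.75 and 0.55 in the 4 livers on MCD diet and -1.70, -0.95, -2.03 and -0.94 in the 4 given the agonist. The groups did not overlap, and MCD diet replicate 4 was the lowest of its group. Cdc20 fell by 3.71 ± 0.70 on the log2 scale (adjusted p = 0.00175; probe at chr4:118105534-118105593, mm9). Ccnb2, a B-type cyclin that partners Cdk1 in mitosis, was at 1.28, 1.72, 1.77 and 0.45 without and -1.40, -0.89, 0.17 and -1.17 with the agonist, again without overlap, and fell by 2.13 ± 0.41 (adjusted p = 0.00208). Prc1, which bundles microtubules of the spindle midzone, was at 0.58, 0.72, 0.47 and -1.19 and -3.97, -2.57, -3.95 and -2.94. It fell by 3.50 ± 0.70 (adjusted p = 0.00258).

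The other members that fell span spindle, kinetochore and proliferation genes. Kif20a, a kinesin of cytokinesis, was at 0.78, 0.09, 0.28 and -0.95 and -1.99, -2.16, -3.002 and -2.42 (difference -2.44, adjusted p = 0.00534). Mki67, which encodes the proliferation marker Ki-67, was at 1.64, 1.60, 1.44 and 0.20 and -0.87, -0.12, -2.44 and -0.85 (difference -2.29, adjusted p = 0.0173), and Cenpa, the centromeric histone H3 variant, at 0.53, 0.24, 0.40 and -0.05 and -1.41, -1.04, -2.23 and -0.59 (difference -1.60, adjusted p = 0.00336). None of these 3 genes had overlapping groups. Tpx2, a spindle assembly factor, fell by 3.16 ± 0.80 (adjusted p = 0.0103) and was well above background on 1 of the 4 agonist arrays. Cdk1, the mitotic kinase itself, and Melk, a kinase of dividing cells, were above background on every MCD diet array and on no agonist array, so their falls are bounds of at least 3.13-fold and at least 3.27-fold (adjusted p = 0.00125 and 0.00599). Outside the list, Aspm (spindle poles), Iqgap3 and Shcbp1 were among the 15 largest falls, at least 5.49-fold, 5.12-fold and 7-fold lower (adjusted p = 0.000855, 0.0111 and 0.00385). A bound sets the mean of the bright group against the detection limit or the dim probe's own signal, whichever is higher on each array. Mean levels with the agonist were -1.40 for Cdc20, -0.82 for Ccnb2 and -1.07 for Mki67, beside -1.36, -0.82 and -1.77 in standard diet livers. Leaving out 1 liver gave 14 to 22 falls on the list, and Mki67 lost its call without agonist replicate 3 (adjusted p = 0.0843).

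**Figure D2:**
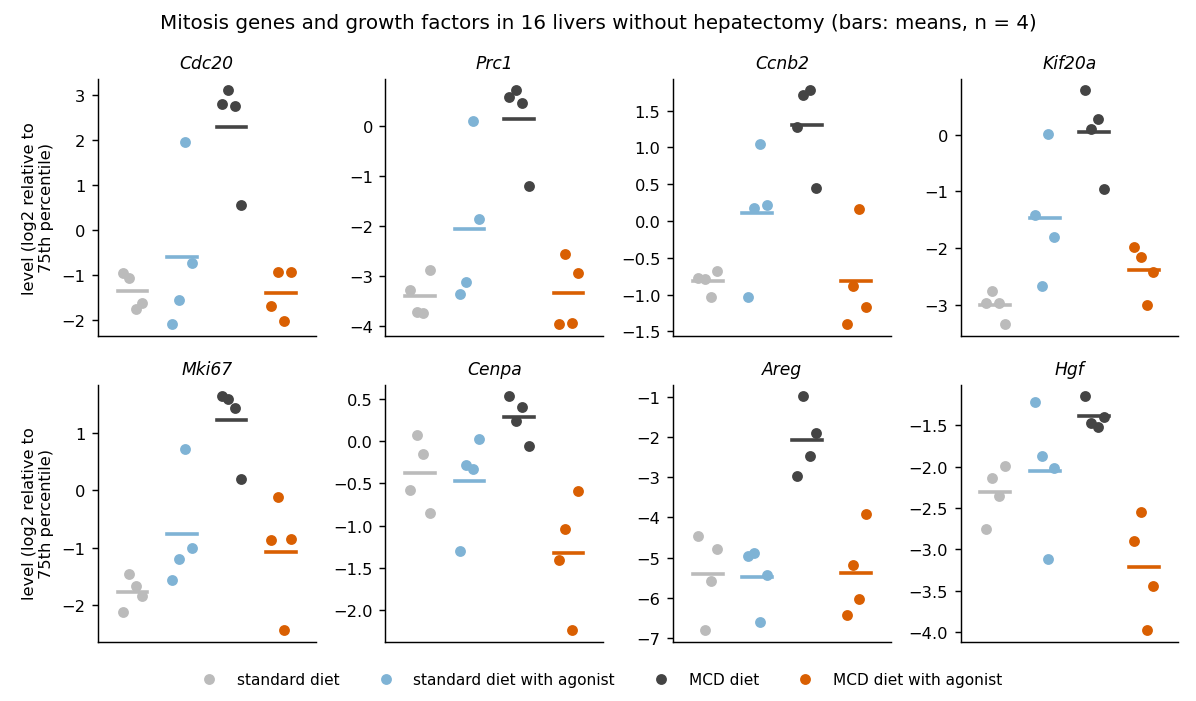
Level of 8 genes (y axis, log2 relative to the array's 75th percentile) in each liver of the 4 groups without hepatectomy, with bars at the means of 4 livers. For the 6 mitosis genes and for Areg and Hgf the 4 livers on MCD diet (dark) lie above the 4 on MCD diet with agonist (orange), and MCD diet replicate 4 is the lowest of its group for the mitosis genes.

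Promoters of the mitosis genes that fell are shown because many of these genes share known promoter elements: the cell cycle genes homology region (CHR, letters TTTGAA) and the CCAAT box (letters CCAAT), bound by the DREAM and MMB complexes and by NF-Y. RefSeq windows from 250 before to 50 after the start (GRCm38.p6) were found for 17 of the 20 genes. Counting both strands, the CHR letters lay in 12 of their 18 windows (66.7%), against 17.9% of all 32851 windows, and the CCAAT letters in 15 (83.3%) against 37.4%. Both motifs were chosen after the results were seen, and a match describes the letters, not a bound site. The 3 windows below read 5′ to 3′ on the minus strand, with CHR and CCAAT letters in capitals, and lie at chr4:118437294-118437593 (Cdc20), chr9:70421505-70421804 (Ccnb2) and chr10:69352863-69353162 (Cdk1).
Cdc20: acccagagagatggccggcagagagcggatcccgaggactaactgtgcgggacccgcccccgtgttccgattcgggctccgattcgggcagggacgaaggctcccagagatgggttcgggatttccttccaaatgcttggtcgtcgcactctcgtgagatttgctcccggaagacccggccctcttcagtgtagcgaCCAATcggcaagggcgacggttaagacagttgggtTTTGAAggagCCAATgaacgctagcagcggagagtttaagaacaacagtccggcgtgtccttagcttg
Ccnb2: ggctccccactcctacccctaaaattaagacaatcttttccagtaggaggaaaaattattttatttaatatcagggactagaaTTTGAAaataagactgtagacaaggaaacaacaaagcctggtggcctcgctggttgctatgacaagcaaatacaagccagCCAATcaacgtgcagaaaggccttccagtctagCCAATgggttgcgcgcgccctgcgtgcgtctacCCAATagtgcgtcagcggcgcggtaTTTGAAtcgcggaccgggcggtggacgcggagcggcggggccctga
Cdk1: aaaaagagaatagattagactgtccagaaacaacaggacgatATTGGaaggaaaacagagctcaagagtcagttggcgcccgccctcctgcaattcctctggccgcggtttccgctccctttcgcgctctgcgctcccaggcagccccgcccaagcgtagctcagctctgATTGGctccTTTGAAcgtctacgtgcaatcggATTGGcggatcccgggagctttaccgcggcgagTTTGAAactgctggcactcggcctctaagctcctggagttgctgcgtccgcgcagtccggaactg
Each window holds at least 1 CHR and 2 CCAAT matches, the CHR nearest the start beginning at position -18 in Cdc20, -15 in Cdk1 and 4 in Ccnb2.

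Genes of DNA replication moved less uniformly than those of mitosis. Of 31 tested, 5 fell and 2 rose, with a median difference of -0.45. Uhrf1, which recruits DNA methyltransferase to replicated DNA, had levels of -0.41, -0.09, -0.28 and -0.72 and -2.72, -1.66, -2.62 and -2.80 and fell by 2.08 ± 0.54 (adjusted p = 0.0122). Rfc3, a clamp loader subunit, fell by 1.12 ± 0.25 (adjusted p = 0.00535). The 2 called rises on the list were not called with median scaling, where 8 members fell. The Mcm helicase genes did not pass the test, and leaving out 1 liver gave 2 to 6 falls on the list, fewest without MCD diet replicate 3 or 4 or agonist replicate 1.

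Growth factors and cell cycle regulators gave 3 rises and 3 falls among 25 genes, with no rise and 5 falls under median scaling. Areg, the EGF receptor ligand amphiregulin, was at -2.98, -0.98, -2.47 and -1.90 without and -6.44, -5.18, -6.04 and -3.92 with the agonist, above background on 4 and 0 arrays, and was at least 5.69-fold lower with it (adjusted p = 0.000639). Hgf, the hepatocyte growth factor made by stellate cells, was at -1.15, -1.47, -1.52 and -1.40 and -2.90, -2.55, -3.98 and -3.45 and fell by 1.84 ± 0.37 (adjusted p = 0.00254). Neither gene had overlapping groups, and both were called in all 8 fits that left out 1 liver. Cdk2, a kinase of the G1/S transition, rose by 1.07 ± 0.26 (adjusted p = 0.00787), but not with median scaling (adjusted p = 0.097). Ccnd1, cyclin D1, had a difference of -1.13 ± 0.48 (adjusted p = 0.114).

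Immediate early genes, which answer stress and growth signals within minutes, fell in 7 of 22 cases and rose in none, with a median of -0.84. Atf3, a stress-induced transcription factor, had levels of 3.56, 3.91, 2.90 and 2.17 on MCD diet and 0.48, 0.32, -1.17 and 0.31 with the agonist and fell by 3.15 ± 0.79 (adjusted p = 0.0096). Fos was at -2.59, -1.44, -1.72 and -0.23 and -3.19, -4.46, -4.54 and -4.05 and fell by 2.57 ± 0.61 (adjusted p = 0.0069). Its partner Jun was at 3.76, 4.47, 3.33 and 4.54 and 1.70, 3.90, 2.07 and 2.51, with overlapping groups, and fell by 1.48 ± 0.47 (adjusted p = 0.0332). Atf3 and Fos did not overlap and were called in all 8 fits that left out 1 liver. Jun lost its call in 6 of these fits (adjusted p up to 0.112) and Myc in 5 (adjusted p = 0.0388 with all livers, up to 0.133), and the count on the list ran from 2, without MCD diet replicate 4 or agonist replicate 3, to 6.

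Cyclic AMP signalling, the route downstream of both receptors, changed in 2 of 23 genes, a share below the 13.3% called over all genes (4 fell with median scaling). Atf3 is one and Nr4a1, a nuclear receptor induced by cyclic AMP, the other. Nr4a1 was at 2.60, 3.22, 3.60 and 4.49 without and -0.17, 0.19, 3.03 and 0.88 with the agonist, where agonist replicate 3 lay within the range of MCD diet, and it fell by 2.49 ± 0.64 (adjusted p = 0.0114). Ppargc1a, a coactivator that glucagon induces in hepatocytes, had a difference of -0.50 ± 0.48 (adjusted p = 0.521). The letters of the full cyclic AMP response element (TGACGTCA, both strands) are in 1.79% of all promoter windows. They are in neither window of the 2 cyclic AMP genes that fell. Of the 7 immediate early genes that fell, 6 had a window, 12 windows in all, and only 1, of Maff, holds the letters. The half-site letters (TGACG, both strands) lie in 7 of these 12 windows (58.3%), against 20.8% of all windows. The 7 windows belong to Atf3, Egr2, Fos and Maff. Areg, on neither list, was looked up after its values were seen. Its window holds the letters of the full element and is shown here on the plus strand at chr5:91139349-91139648 with the element in capitals, beginning at position -61 from the start.
Areg: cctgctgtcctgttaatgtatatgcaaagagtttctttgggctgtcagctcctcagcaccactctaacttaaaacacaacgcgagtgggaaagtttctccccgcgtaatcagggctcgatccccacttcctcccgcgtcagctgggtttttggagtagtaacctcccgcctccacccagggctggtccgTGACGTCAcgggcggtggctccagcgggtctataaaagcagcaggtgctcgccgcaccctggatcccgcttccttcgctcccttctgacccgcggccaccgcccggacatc

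Some stress-response genes that were high on MCD diet fell with the agonist. Of 28 genes of the integrated stress response, the programme of the transcription factor ATF4, 4 fell and none rose (median -0.44). Over all genes 4.39% fell. The list had 3 to 6 falls when 1 liver was left out and 7 with median scaling. Nupr1, a stress-induced chromatin protein, was at 5.72, 7.15, 4.86 and 5.83 without and 2.87, 3.84, 1.94 and 3.42 with the agonist and fell by 2.87 ± 0.61 (adjusted p = 0.00356). Ddit3, which encodes the pro-apoptotic factor CHOP, was at 2.78, 3.06, 2.48 and 1.81 and 0.53, 0.77, -0.46 and 1.10 and fell by 2.05 ± 0.37 (adjusted p = 0.00127). The groups were apart for both genes. Ddit4, an inhibitor of mTORC1, fell by 2.22 ± 0.68 (adjusted p = 0.0294), with a call lost in 5 of the 8 fits (adjusted p up to 0.0808). Enzymes of amino acid supply on the same list did not pass: Asns, asparagine synthetase, differed by -0.87 ± 0.41 (adjusted p = 0.152) and Psat1 by -1.31 ± 0.61 (adjusted p = 0.151). For both, agonist replicate 3 was far below the other 3 livers of its group.

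The promoter window of Nupr1 is shown because it alone among those of the 4 genes that fell holds the letters of the C/EBP-ATF response element (TGATGNAAN, both strands, in 3.95% of all windows), beginning at position -111 from the start. It lies on the minus strand at chr7:126625421-126625720, with the element in capitals.
Nupr1: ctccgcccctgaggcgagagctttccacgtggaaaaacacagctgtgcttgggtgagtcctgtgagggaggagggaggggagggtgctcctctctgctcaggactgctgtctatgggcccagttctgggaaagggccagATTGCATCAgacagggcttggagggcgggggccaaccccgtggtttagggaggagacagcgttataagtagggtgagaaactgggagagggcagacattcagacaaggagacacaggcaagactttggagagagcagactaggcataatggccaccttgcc

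Among 24 hepatokines, proteins the liver secretes to act elsewhere, 2 fell and 1 rose, a share close to the 13.3% called over all genes. Gdf15, a stress hormone that lowers appetite, was at 4.36, 4.53, 3.99 and 3.40 and 1.74, 2.62, -0.05 and 2.40 and fell by 2.39 ± 0.55 (adjusted p = 0.00575). Inhbe, an activin subunit of hepatocytes, was at 5.18, 4.99, 5.31 and 5.24 and 2.95, 4.04, 2.10 and 3.17 and fell by 2.11 ± 0.48 (adjusted p = 0.00564). The groups were apart for both. Enho, the precursor of adropin, rose by 1.49 ± 0.46 (adjusted p = 0.0304), a call lost in 5 fits that left out 1 liver (adjusted p up to 0.0994) and with median scaling. Fgf21, a fasting and stress hormone, was at 5.40, 4.51, 4.80 and 3.17 and 2.06, 2.94, 0.59 and 1.82. Its groups did not overlap, but the difference of -2.62 ± 0.90 missed the threshold (adjusted p = 0.0512).

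**Figure D3:**
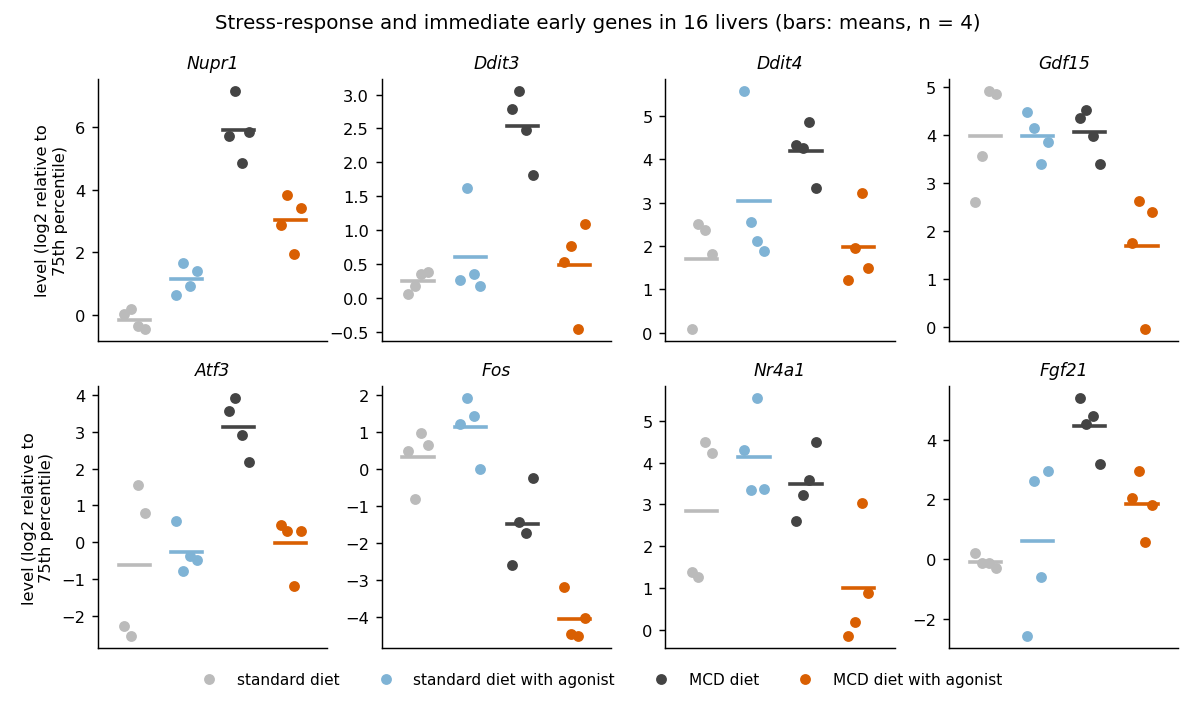
Level of 8 stress-response, hepatokine and immediate early genes (y axis, log2 relative to the array's 75th percentile) in each liver of the 4 groups without hepatectomy, with bars at the means of 4 livers. MCD diet with agonist (orange) lies below MCD diet (dark) for 7 of the genes, and for Nr4a1 agonist replicate 3 reaches the MCD diet range.

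Several markers of resident liver macrophages fell with the agonist. Of 13 Kupffer cell markers, 6 fell and none rose (median -1.25). Vsig4, a complement receptor of Kupffer cells, was at 4.93, 3.21, 5.03 and 4.75 on MCD diet and 2.93, 3.13, 1.82 and 2.32 with the agonist, so that all agonist livers lay below the lowest MCD diet liver, and it fell by 1.93 ± 0.45 (adjusted p = 0.0061). Folr2, a folate receptor, was at 2.61, 0.61, 2.04 and 1.996 and 0.21, -0.74, -1.42 and 0.45 and fell by 2.19 ± 0.42 (adjusted p = 0.00203). Cd5l, a secreted scavenger protein, was at 7.27, 5.62, 6.45 and 6.52 and 5.81, 5.11, 4.50 and 4.61 (adjusted p = 0.0179). The groups of Folr2 were apart and those of Cd5l overlapped in 1 liver of each. Clec4f, a lectin found on mouse Kupffer cells alone among liver cells, and Timd4, a receptor for dying cells, also fell, with differences of -1.25 and -1.32 (adjusted p = 0.0211 and 0.0303). In whole liver, fewer cells of a type and less RNA per cell cannot be told apart. The number of falls on this list was 2 to 8 when 1 liver was left out, lowest without MCD diet replicate 1 or agonist replicate 3, and Timd4 lost its call in 6 of these fits (adjusted p up to 0.114).

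Several antigen presentation genes fell too. Among 11 MHC class II and dendritic cell genes 6 fell, and all 11 had differences below 0 (median -1.30). H2-Aa, a class II alpha chain, was at 2.21, 1.37, 2.42 and 1.56 without and -0.18, 0.10, -0.72 and 0.67 with the agonist, with no overlap, and fell by 1.92 ± 0.40 (adjusted p = 0.00326). H2-Ab1, its beta chain, was at 5.73, 5.11, 5.69 and 5.50 and 4.01, 3.86, 3.81 and 4.09, also apart, and fell by 1.56 ± 0.41 (adjusted p = 0.0139). Cd74, the invariant chain, fell by 1.38 (adjusted p = 0.0174) and H2-Eb1 by 1.36 (adjusted p = 0.0223). Kupffer cells, dendritic cells and B cells all express these genes, and what part the lower macrophage markers have in this result was not tested. Leaving out 1 liver gave 3 to 7 falls, fewest without MCD diet replicate 1, and median scaling gave 10.

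Chemokines and innate signalling genes followed the same direction where they were called. Of 26 chemokines and receptors 6 fell, and of 26 genes of Toll-like receptor, TNF and NF-kB signalling 6 fell, with medians of -1.34 and -0.77 and no rise. On the chemokine list 9 fell after quantile normalization and 10 with median scaling. Of the 6 falls, 3 on the chemokine list and 4 on the signalling list were above background on every array of both groups. Among genes with a mean level above -2, 3 of 17 chemokine genes and 4 of 21 signalling genes fell. Cxcr3, a receptor of activated T cells, was at -0.90, -1.81, 0.02 and -0.88 and -1.95, -2.23, -2.44 and -1.91, with no overlap, and fell by 1.24 ± 0.29 (adjusted p = 0.00597). The ligands Ccl5 and Ccl4 fell, with differences of -1.06 and -2.59 (adjusted p = 0.012 and 0.0299), and Ccl17, above background on no agonist array, was at least 3.13-fold lower (adjusted p = 0.0135). Ccl2, the monocyte attractant, was at 1.65, 1.86, 0.93 and 2.52 and -0.92, -0.24, -1.94 and -0.36, apart but with a wide error (-2.60 ± 0.97, adjusted p = 0.0693).

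Tlr4, the lipopolysaccharide receptor, fell by 1.35 ± 0.38 (adjusted p = 0.0182), the cytokine gene Il1b by 1.30 ± 0.39 (adjusted p = 0.0274) and the TNF receptor Tnfrsf1a by 0.69 ± 0.21 (adjusted p = 0.0283). Tnf itself did not pass (difference -1.74 ± 0.73, adjusted p = 0.106) and was above background on no agonist array. The chemokine list gave 3 to 7 falls and the signalling list 1 to 6 when 1 liver was left out, the fewest without MCD diet replicate 4 and without agonist replicate 3.

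Interferon-stimulated genes fell in 5 of 33 cases (median -0.68). Oasl2, of the oligoadenylate synthetase family, was at 0.67, 0.61, 0.38 and 0.37 and -1.37, -1.97, -3.05 and -0.86 and fell by 2.32 ± 0.46 (adjusted p = 0.00251). Oas2 was at 1.04, 1.65, 0.47 and 0.96 and -0.29, -0.38, -1.15 and -0.40 and fell by 1.58 ± 0.32 (adjusted p = 0.00258). Neither overlapped between the groups. Usp18, which removes ISG15 from proteins, fell by 1.12 (adjusted p = 0.0307), a call lost in 5 fits that left out 1 liver (adjusted p up to 0.145), and Oasl2 and Oas2 were called in all 8. The 5 falls on the list became 2 without any one of MCD diet replicates 2, 3 and 4 and agonist replicate 3, and 8 without agonist replicate 2 or with median scaling.

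None of 17 markers of recruited macrophages passed in limma (6 had an unadjusted p under 0.05, beside 29.4% of all genes, median -1.003), but 2 fell after quantile normalization, 4 with median scaling and 5 in a fit of the 8 livers alone. Trem2, a receptor of lipid-associated macrophages, was at 2.82, 2.48, 2.28 and 2.89 and 0.64, 1.57, 0.75 and 2.48, with a difference of -1.26 ± 0.82 (adjusted p = 0.313), whereas Ms4a6d and Clec4e, 2 myeloid membrane proteins outside the list, were among the 15 largest falls (adjusted p = 0.0103 and 0.0358). The call was lost for Ms4a6d without agonist replicate 3 (adjusted p = 0.0563) and for Clec4e in 6 fits (adjusted p up to 0.116). None of 15 neutrophil markers passed, with 1 at an unadjusted p under 0.05. T cell genes disagreed: Cd3d and Cd3g, subunits of the T cell receptor complex, fell, with differences of -1.01 ± 0.26 and -1.62 ± 0.36 (adjusted p = 0.011 and 0.0047), whereas Cd3e rose by 0.77 ± 0.19 (adjusted p = 0.0101), not called with median scaling (adjusted p = 0.255). Jchain, the joining chain of secreted IgA and IgM, was at 2.77, 1.51, 3.15 and 2.87 and 0.38, -1.25, -1.04 and -0.03, with no overlap, and fell by 3.06 ± 0.55 (adjusted p = 0.00124). C1qa, a complement gene of macrophages, fell by 1.55 ± 0.50 (adjusted p = 0.0391), but lost its call in 5 fits (adjusted p up to 0.171).

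**Figure D4:**
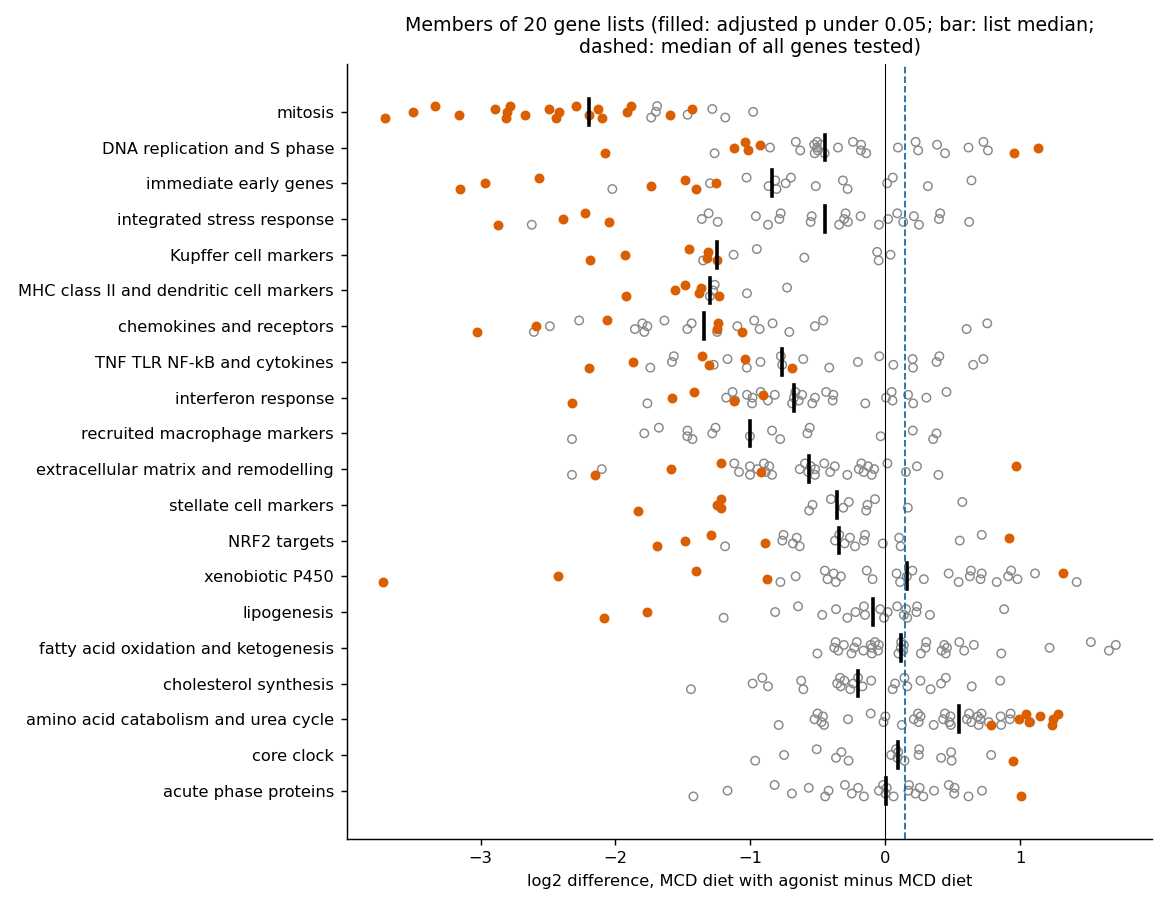
Log2 difference between MCD diet with agonist and MCD diet (x axis) for each tested member of 20 gene lists (y axis), filled where the adjusted p was under 0.05, with list medians as bars and the median of all genes (0.15) dashed. The mitosis list stands furthest to the left, with a median of -2.20, and the amino acid list lies to the right, with a median of 0.55.

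The number of matrix genes that changed depended on the scaling. Of 36 matrix and remodelling genes 4 fell and 1 rose (median -0.56), beside 4.39% falls and 8.88% rises over all genes. On this list 7 fell after quantile normalization and 11 with median scaling. Of all 21710 genes, 1237 and 2181 fell under these 2 scalings, against 952 in the main fit. Col3a1, type III collagen, was at 2.32, 2.57, 2.71 and 2.66 on MCD diet and 1.07, 0.78, 0.74 and 1.30 with the agonist, with no overlap, and fell by 1.59 ± 0.38 (adjusted p = 0.00757). Dcn, decorin, was at 7.83, 7.48, 8.51 and 7.43 and 6.58, 6.87, 7.18 and 5.73 and fell by 1.22 ± 0.32 (adjusted p = 0.0133). Thbs1, thrombospondin 1, fell by 2.15 ± 0.63 (adjusted p = 0.0224), and Mmp14, a membrane metalloprotease, rose by 0.97 ± 0.31 (adjusted p = 0.0333), but not with median scaling (adjusted p = 0.256). The fibrosis genes Col1a1 and Timp1 did not pass: Col1a1 had a difference of -1.12 ± 0.64 (adjusted p = 0.244) and Timp1 of -2.10 ± 0.89 (adjusted p = 0.109). Of 14 stellate cell markers 4 fell, including Lrat, which stores vitamin A as retinyl esters (-1.22 ± 0.33, adjusted p = 0.0147), and the transcription factor Hand2 (-1.25 ± 0.33, adjusted p = 0.0135), and Hgf and Dcn are on that list as well. The sinusoidal endothelial marker Oit3 fell by 1.57 ± 0.34 (adjusted p = 0.004), 1 of 2 falls among 18. Leaving out 1 liver gave 2 to 4 falls on the matrix list, and Thbs1 and Dcn were not called in 3 and 2 of these fits (adjusted p up to 0.0625 and 0.0546).

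Fat metabolism genes mostly stayed below the threshold. None of 35 genes of fatty acid oxidation and ketogenesis and none of 25 of cholesterol synthesis passed in limma, with 3 of each at an unadjusted p under 0.05, beside 29.4% of all genes (medians 0.12 and -0.20). With median scaling 1 and 2 of them fell, after quantile normalization 0 and 1, and in a fit of the 8 livers alone 3 oxidation genes rose. Of 22 lipogenic genes 2 fell, beside 4.39% of all genes. Scd1, stearoyl-CoA desaturase, was at 4.70, 4.72, 5.70 and 4.59 without and 4.33, 2.81, 1.59 and 3.93 with the agonist and fell by 1.76 ± 0.53 (adjusted p = 0.0272), and Elovl6, the elongase of palmitate, was at 4.80, 5.07, 5.71 and 3.78 and 4.27, 2.24, 1.41 and 3.098 and fell by 2.09 ± 0.58 (adjusted p = 0.0178). Agonist replicate 1 lay within the MCD diet range for Elovl6, and without agonist replicate 3 or MCD diet replicate 3 neither gene was called (adjusted p up to 0.14 and 0.0888). Fasn, fatty acid synthase, spread from 1.48 to 6.38 among the agonist livers (difference 0.16 ± 0.80, adjusted p = 0.916).

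Cidec, a lipid droplet protein of fatty liver, was at 3.20, 5.03, 2.60 and 3.67 and 1.56, 2.08, 0.32 and 1.28, with no overlap, and fell by 2.32 ± 0.64 (adjusted p = 0.0178; 0.0752 at most when 1 liver was left out). Lcat, which esterifies plasma cholesterol, was at 4.71, 4.06, 4.16 and 4.13 and 5.26, 5.24, 5.84 and 6.19 and rose by 1.37 ± 0.29 (adjusted p = 0.00385), also under the other 2 scalings. Of 25 bile acid genes 3 fell, beside 4.39% of all genes. With 1 liver left out 0 to 2 fell, and 0 without MCD diet replicate 4 or agonist replicate 3. Among the 3 was Abcb4, the phosphatidylcholine exporter of the bile canaliculus (-0.996 ± 0.30, adjusted p = 0.0254, up to 0.0813 when 1 liver was left out). Cyp7a1, the rate-limiting enzyme of bile acid synthesis, did not pass (0.35 ± 0.89, adjusted p = 0.83), nor did the fatty acid transporter Cd36 (-0.96 ± 0.43, adjusted p = 0.132). Cyp4a14, a fatty acid hydroxylase induced through PPARα, was at 7.33, 6.91, 7.29 and 7.91 and 8.38, 9.43, 9.13 and 9.34, apart but short of the threshold (adjusted p = 0.0749).

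Among 31 xenobiotic P450 genes 4 fell and 1 rose, beside 4.39% falls and 8.88% rises over all genes. Leaving out 1 liver gave 2 to 4 falls and 0 to 3 rises, with 2 falls without MCD diet replicate 1 or 4 or agonist replicate 3. Cyp3a44 was at 4.69, 3.93, 5.44 and 4.73 on MCD diet and 0.35, 1.52, 0.52 and 1.51 with the agonist, with no standard diet array above background, and fell by 3.72 ± 0.64 (adjusted p = 0.00101), although close paralogs of the Cyp3a cluster may hybridise to its probe. Cyp1a1, a target of the aryl hydrocarbon receptor, was above background on no agonist array and at least 4.45-fold lower (adjusted p = 0.0041). Cyp2c37 rose by 1.32 ± 0.42 (adjusted p = 0.0378), lost in 6 fits that left out 1 liver (adjusted p up to 0.126). Cyp2u1, outside the list, was at 8.09, 8.23, 8.22 and 8.58 and 9.57, 9.33, 9.90 and 10.19 and rose by 1.47 ± 0.32 (adjusted p = 0.00409) under all 3 scalings. Cux2, a transcription factor of female liver, rose by 2.67 ± 0.82 (adjusted p = 0.0292) in these males, from -2.08, -4.04, -1.30 and -2.29 to 0.46, -0.55, 1.45 and -0.40, but not with median scaling, while 4 of 24 female-biased genes fell, a count that was 1 without MCD diet replicate 1, 3 or 4 or agonist replicate 1 or 3, and 6 of the 24 rose in a fit of the 8 livers alone.

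The antioxidant targets of NRF2 fell in 4 of 23 cases and rose in 1 (8 fell and none rose with median scaling). Hmox1, heme oxygenase, was at 3.91, 3.15, 3.33 and 4.69 and 1.42, 2.74, 2.15 and 1.996, with no overlap, and fell by 1.69 ± 0.52 (adjusted p = 0.0301). Srxn1, sulfiredoxin, fell by 1.49 ± 0.39 (adjusted p = 0.0132) and Nfe2l2, which encodes NRF2, by 0.89 ± 0.26 (adjusted p = 0.0211). None of the 3 was called without agonist replicate 3, and the list then held no call. Hspa1a, an inducible heat shock protein, fell by 1.65 ± 0.52 (adjusted p = 0.0335), a call lost in 4 fits (adjusted p up to 0.176).

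Genes that break down amino acids, a process glucagon stimulates, were the main list on which members rose. Of 42 genes 8 rose and none fell, beside rises in 8.88% of all genes (median 0.55). After quantile normalization 5 rose, with median scaling none, and in a fit of the 8 livers alone 1. Leaving out 1 liver gave 2 to 7 rises, fewest without MCD diet replicate 2 or agonist replicate 3. On the list of periportal hepatocyte markers, which shares members with this one, 3 of 15 rose, and none with median scaling. Ftcd, of histidine and folate metabolism, was at 7.34, 7.40, 7.78 and 7.41 and 8.43, 8.63, 8.89 and 7.94, with no overlap, and rose by 0.99 ± 0.24 (adjusted p = 0.00774). Hal and Uroc1, the first enzymes of histidine breakdown, rose by 1.24 ± 0.35 and 1.28 ± 0.33 (adjusted p = 0.0205 and 0.0114). Cps1, the entry enzyme of the urea cycle, was at 6.54, 5.84, 6.53 and 5.77 and 7.15, 6.18, 8.05 and 8.28 and rose by 1.24 ± 0.34 (adjusted p = 0.017), and Haao, of tryptophan breakdown, rose by 1.14 ± 0.35 (adjusted p = 0.0313). Agonist replicate 3 was the highest liver for Ftcd, Hal, Uroc1 and Haao.

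In the methionine cycle 1 of 31 genes rose: Ahcy, which hydrolyses S-adenosylhomocysteine, by 1.12 ± 0.34 (adjusted p = 0.0265), from 3 agonist arrays because the spot of replicate 4 was an outlier, and not in 4 of the fits that left out 1 liver (adjusted p up to 0.22). Gnmt and Mat1a, which consume and make S-adenosylmethionine, did not pass (differences 0.58 and 0.69, adjusted p = 0.117 and 0.135).

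The classic gluconeogenic targets of glucagon did not pass the test. Pck1, phosphoenolpyruvate carboxykinase, was at 8.35, 8.32, 8.22 and 8.80 and 8.54, 8.36, 9.26 and 8.29 (difference 0.19 ± 0.34, adjusted p = 0.75). G6pc, glucose-6-phosphatase, was at 6.18, 6.91, 6.35 and 6.06 and 7.06, 3.41, 7.47 and 4.19 (difference -0.84 ± 0.83, adjusted p = 0.528), with agonist livers both above and below all MCD diet livers. Of 17 genes of this group, 2 rose and 1 fell (3 fell with median scaling). Foxo3, a transcription factor restrained by insulin, was at 0.09, -0.06, -0.10 and 0.38 without and 2.57, 1.21, 2.09 and 1.27 with the agonist, with no overlap, and rose by 1.71 ± 0.32 (adjusted p = 0.00185). Ppp1r3b, which targets a phosphatase to glycogen and promotes its storage, was at 5.99, 5.89, 6.49 and 6.25 and 7.70, 7.08, 8.33 and 7.84 and rose by 1.58 ± 0.35 (adjusted p = 0.00463). Both rises held under all 3 scalings and in all 8 fits that left out 1 liver.

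The largest rises in the comparison were of dim probes. Olfr136, an olfactory receptor, was at -5.45, -6.96, -7.16 and -7.10 and -3.95, -4.30, -3.42 and -2.98, above background on 0 and 2 arrays, and at least 2.5-fold higher with the agonist (adjusted p = 0.00245). Clgn, a chaperone of the testis, was at -5.03, -5.50, -5.69 and -5.07 and -3.03, -3.16, -2.24 and -1.52 (adjusted p = 0.000704), and Dnah3 (a dynein chain), Klk11 (a kallikrein) and Opn1mw (a cone opsin), each above background on no MCD diet array, were at least 1.84-fold, 2.01-fold and 3.05-fold higher (adjusted p = 0.000639, 0.00114 and 0.000778). With the array-wide signal lower on the agonist arrays, what part signal strength has in these rises was not tested. Rises were 161 of 1532 genes with a mean level below -4 and 391 of 6693 above 2.

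The effect of the agonist on MCD diet was set against its effect on standard diet (4 livers with and 4 without, on the same 2 slides), since an additive shift of a slide would cancel between them. Array brightness need not cancel. The 75th percentile intensity was 442 to 564 without and 211 to 467 with the agonist on MCD diet. On standard diet it was 209 to 395 without and 231 to 470 with it. What part brightness has in the difference was not tested. The difference of the 2 effects passed for 2408 genes (11.1%), 1336 of them higher (6.15%) and 1072 lower (4.94%) on MCD diet. This balance followed the scaling as well: 986 were higher and 1279 lower after quantile normalization, and 262 and 2462 with median scaling. Of the 2408 genes, 1245 were also called on MCD diet. On standard diet alone 1414 genes passed (6.51%; 3.31% rose and 3.21% fell). For the mitosis list the difference passed for 19 genes, all lower on MCD diet. Cdc20 had levels of -0.97, -1.07, -1.77 and -1.64 on standard diet and -2.10, -1.56, 1.95 and -0.74 with the agonist, a difference of 0.75 ± 0.70 (adjusted p = 0.575), and the effects differed by -4.45 ± 0.99 (adjusted p = 0.00501).

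On standard diet 5 of the 13 Kupffer cell markers rose with the agonist, and the difference between the diets passed for 7. Vsig4 was at 1.47, 2.66, 2.21 and 2.37 on standard diet and 5.28, 4.10, 3.77 and 4.003 with the agonist and rose there by 2.11 ± 0.45 (adjusted p = 0.00647), against its fall on MCD diet (difference of the effects -4.04 ± 0.63, adjusted p = 0.000393). H2-Aa rose by 1.36 ± 0.40 on standard diet (adjusted p = 0.04; difference -3.28 ± 0.57, adjusted p = 0.000898), and 9 of 11 genes of its list differed. The difference passed for 17 of 33 interferon genes, 12 of 26 chemokine genes and 11 of 26 Toll-like receptor and TNF genes, each time lower on MCD diet. Nupr1 (difference -4.17 ± 0.86, adjusted p = 0.00314) and Asns, which rose on standard diet by 2.83 ± 0.41 (adjusted p = 0.000414; difference -3.70 ± 0.58, adjusted p = 0.000381), differed as well.

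The difference between the diets passed for 3 of 18 core clock genes, 1 of 17 clock outputs and 6 of 28 acute phase proteins, beside 11.1% of all genes. Nr1d1, the clock repressor REV-ERBα, was at 1.94, 1.72, 2.09 and 1.63 and 2.34, 2.05, 2.53 and 2.42 on MCD diet without and with the agonist, a difference of 0.49 ± 0.47 (adjusted p = 0.519), whereas on standard diet it was at 3.73, 3.20, 2.85 and 2.90 and -2.72, 0.16, -0.91 and 1.38 and fell by 3.69 ± 0.47 (adjusted p = 0.000136). The effects differed by 4.18 ± 0.67 (adjusted p = 0.000437), and by 4.45 ± 1.18 for the clock output gene Dbp (adjusted p = 0.0155). Of 18 core clock genes 1 rose on MCD diet (Hlf, 0.95 ± 0.25, adjusted p = 0.0133; 0.0534 without agonist replicate 3), while 6 fell and 1 rose on standard diet. The hour at which livers were taken is not given in the labels. Saa1, serum amyloid A, and Lcn2, lipocalin 2, differed by 0.01 ± 0.77 and -0.82 ± 0.99 on MCD diet (adjusted p = 0.995 and 0.622) and rose by 3.71 ± 0.77 and 4.36 ± 0.99 on standard diet (adjusted p = 0.00559 and 0.0101), and the difference of the effects passed for both (adjusted p = 0.0272 and 0.0172). The zinc-binding metallothionein Mt1 showed the same pattern (1.24 ± 0.71 on MCD diet, 4.47 ± 0.71 on standard diet, adjusted p of the difference = 0.0358), and hepcidin, Hamp, did not pass on MCD diet (1.27 ± 0.66, adjusted p = 0.197).

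**Figure D5:**
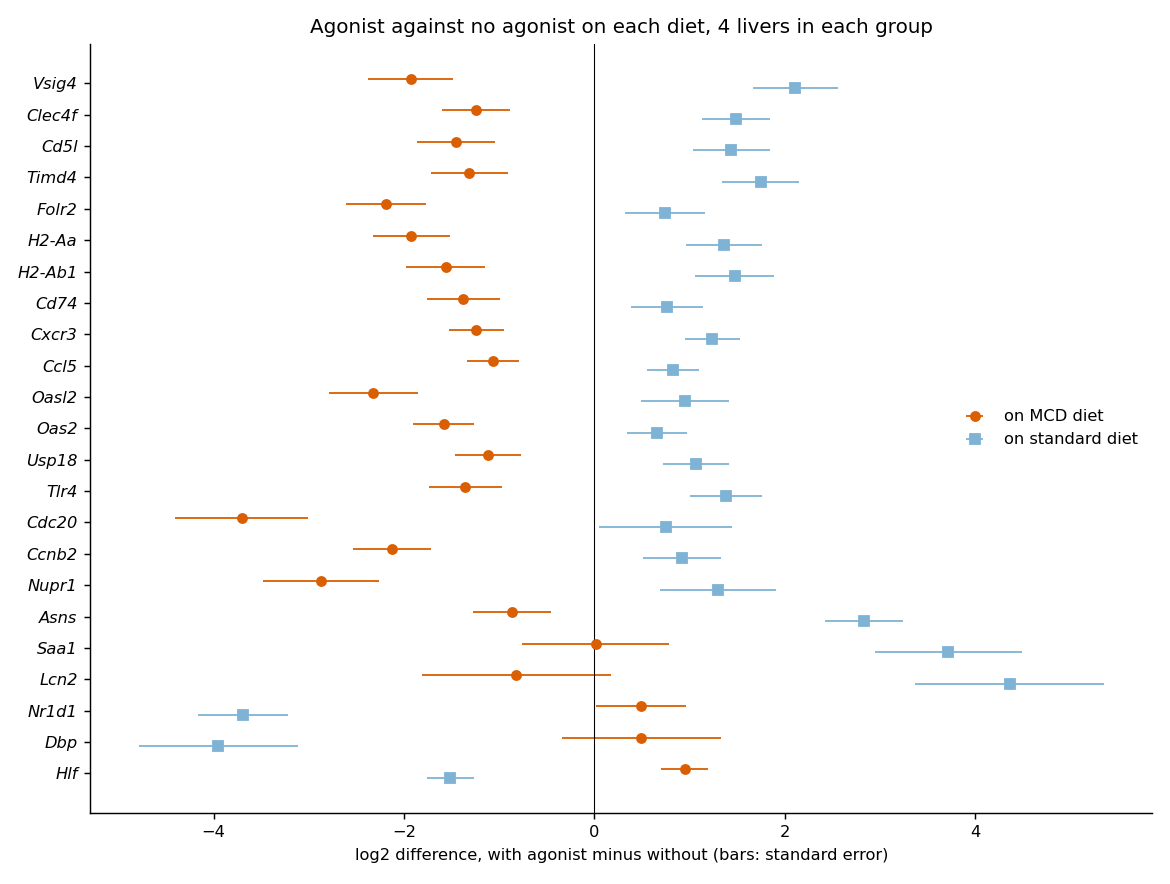
Log2 difference between livers with and without the agonist (x axis, bars are standard errors, 4 livers in each group) on MCD diet (orange circles) and standard diet (blue squares) for 23 genes (y axis). Immune genes lie left of 0 on MCD diet and right of 0 on standard diet, and Nr1d1, Dbp and Hlf lie left of 0 on standard diet.

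At 2 weeks after hepatectomy, agonist against none on MCD diet was compared in 8 other livers on 1 slide. Per the labels, diet and agonist continued after surgery. Surgery and longer treatment therefore cannot be told apart when these livers are set beside those without hepatectomy. This contrast called 88 genes (0.405%, with 0.184% rising and 0.221% falling). Of these, 32 were also called without hepatectomy, 31 of them in the same direction, which is 1.11% of the genes called without hepatectomy and 36.4% of those called after it. Foxo3 rose there by 2.25 ± 0.32 (adjusted p = 0.00284), Cxcr3 fell by 1.34 ± 0.29 (adjusted p = 0.0311) and Jchain by 2.55 ± 0.55 (adjusted p = 0.0311). No mitosis, Kupffer cell or interferon list member passed after hepatectomy, and the list medians there were -0.49, -0.54 and -0.12 (0 of 27, 4 of 13 and 4 of 33 members had an unadjusted p under 0.05 in limma, beside 13.8% of all genes). A test of the difference between the effects without and after hepatectomy passed for 242 genes (1.11%), including Ddit3 (-2.19 ± 0.52, adjusted p = 0.0361) and Cdk1 (adjusted p = 0.0185, with no size given because its probe was above background on no array of MCD diet with agonist) but not Cdc20 (adjusted p = 0.0822) or Vsig4 (adjusted p = 0.233).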

How the data were processed

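Per the labels' protocols, total RNA of frozen livers was Cy3-labelled and hybridised to 1-colour Agilent arrays. Per the file headers, Feature Extraction 10.7.3.1 quantified the slides, and the processed signal deposited by the authors is a background-subtracted linear intensity. The authors also deposited a table of log2 values, whose centring is unknown; the submitters' processing notes name limma. Of its 32 columns 16 correlated best with an array of another group (best r 0.954 to 0.997 for all columns, own r 0.868 to 0.939 for these 16), the MCD diet columns and those of agonist on standard diet having changed places without and after hepatectomy, each with the same replicate number, so it served as an alternative only; columns were matched by rank correlation with the mean signal, a measure chosen after the processed signal had given lower correlations.

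Of 62976 spots, 3671 controls and 5010 outlier spots over the 32 arrays (0.264%) were left out. Signals were scaled to each array's 75th percentile and log2-transformed, spots of a probe were averaged, and probes detected by the background flag in every liver of some group were kept (30139 probes, 21710 genes, each by its brightest probe). Symbols came from the files and were updated through a reference table of GRCm38.p6 (15222 genes matched, 6488 kept the file's name). Probe coordinates are mm9 as the files give them, and exons were not looked up.

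One fit over 32 arrays in 8 groups used limma 3.58.1 (R 4.3.3). In simulated data with 200 changed genes among 21368, it called 25% of 2-fold and 86% of 4-fold changes, with 6 false calls. The simulation changed a far smaller share of genes than the 13.3% called here and held no slide, brightness or scaling difference. Its shares therefore do not give the sensitivity of the real contrast. Named genes are the 15 largest rises and 15 largest falls without overlap, up to 6 called members of each list by adjusted p, members needed to describe a list, and genes of the agonist's pathway (188 genes). Of these, 117 are printed; they were picked with their values known, and 71 were left out, some of them because their direction varied between settings, and some are not reported here. The 54 gene lists and the genes were chosen with earlier results of these data known. The labels do not pair the samples by replicate number, and the main fit does not either. Same-numbered deviations correlated at 0.073 to 0.096, the highest value for each liver. The number of arrays limits the precision.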

Additional observations from a re-analysis of the deposited data

Results flagged for a closer look

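For 74 of the 117 genes named here, the agonist's effect on MCD diet differed from its effect on standard diet (limma interaction, adjusted p under 0.05), 59 of them with a lower and 15 with a higher value on MCD diet. Over all genes the difference passed for 11.1%, with 6.15% higher and 4.94% lower on MCD diet. The 117 genes were picked with their values known, many for their change on MCD diet, which is part of this difference. The count of 74 is therefore raised by the choice of genes and is no result about the diets. The values that follow are log2 differences between the effects. Among mitosis, replication and growth genes it was -4.45 for Cdc20, -4.85 for Prc1, -3.51 for Aspm, -4.25 for Melk, -4.44 for Tpx2, -4.11 for Shcbp1, -3.07 for Cdk1, -3.05 for Ccnb2, -3.99 for Kif20a, -1.50 for Cenpa, -3.30 for Mki67, -3.04 for Uhrf1, -1.34 for Rfc3, -3.24 for Areg and -2.09 for Hgf. Among stress and immediate early genes it was -3.51 for Atf3, -3.38 for Fos, -3.79 for Nr4a1, -2.51 for Hspa1a, -4.17 for Nupr1, -2.41 for Ddit3, -2.37 for Gdf15, -3.57 for Ddit4, -3.70 for Asns, -1.62 for Nfe2l2 and -2.96 for Hmox1. Among macrophage and antigen presentation genes it was -2.93 for Folr2, -4.04 for Vsig4, -2.89 for Cd5l, -2.73 for Clec4f, -3.06 for Timd4, -3.28 for H2-Aa, -3.04 for H2-Ab1, -2.14 for Cd74, -2.56 for H2-Eb1, -3.44 for C1qa, -5.33 for Ms4a6d and -5.05 for Clec4e. Among chemokine, cytokine, interferon and T cell genes it was -2.48 for Cxcr3, -1.88 for Ccl5, -3.71 for Ccl4, -5.37 for Ccl2, -2.73 for Tlr4, -1.96 for Il1b, -1.14 for Tnfrsf1a, -3.27 for Oasl2, -2.24 for Oas2, -2.18 for Usp18, -1.82 for Cd3d and -1.60 for Cd3g. The other negative differences were -2.24 for Col3a1, -1.84 for Dcn, -3.55 for Thbs1, -1.71 for Lrat, -1.54 for Oit3, -4.76 for Cyp3a44, -3.70 for Saa1, -5.18 for Lcn2 and -3.23 for Mt1. The positive differences, where the value on MCD diet was the higher, were 1.34 for Mmp14, 2.04 for Cyp2c37, 2.77 for Cyp2b9, 3.04 for Cyp4a14, 1.34 for Ftcd, 2.13 for Uroc1, 1.88 for Hal, 2.24 for Foxo3, 1.15 for Gnmt, 2.46 for Hlf, 4.18 for Nr1d1, 4.45 for Dbp, 3.34 for Olfr136, 2.66 for Dnah3 and 2.77 for Klk11. The probes of Aspm, Melk, Shcbp1, Cdk1, Areg, Clec4e, Cyp3a44, Olfr136, Dnah3 and Klk11 were above background on no array of at least 1 of the 4 groups, so their values are fitted differences that do not measure a size, and Tpx2 was above background on 1 of the 4 arrays of MCD diet with agonist.

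The effect without hepatectomy differed from that after it for 8 of the 117 named genes, beside 1.11% of all genes, and the choice of genes raises this count too. The effects differed by -3.42 for Cdk1, -2.19 for Ddit3, -2.01 for Oit3, -3.29 for Cyp1a1, 1.98 for Cyp2u1, 2.08 for Ppp1r3b, 3.29 for Clgn and 2.81 for Dnah3. The same limit holds here for Cdk1, Cyp1a1, Clgn and Dnah3.

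Within a group of 4 livers, a single liver stood apart from the others (a gap, as a share of the group's range, above Dixon's critical value) in 22 of 237 groups of values checked, and chance alone gives about 1 in 20. MCD diet replicate 1 stood apart for Lcat (4.71), Cyp1a1 (-2.81) and Olfr136 (-5.45). MCD diet replicate 2 stood apart for Vsig4 (3.21) and Srxn1 (6.34). MCD diet replicate 3 stood apart for Scd1 (5.70), Ftcd (7.78) and Ahcy (6.61). MCD diet replicate 4 stood apart for Cdc20 (0.55), Prc1 (-1.19), Melk (-3.97), Cdk1 (-4.03), Mki67 (0.20) and Fasn (2.17). Agonist replicate 1 stood apart for Timd4 (-1.71) and Cyp2b9 (3.60). Agonist replicate 2 stood apart for Uhrf1 (-1.66). Agonist replicate 3 stood apart for Atf3 (-1.17), Asns (2.81), Psat1 (-1.51), Oas2 (-1.15) and Ms4a6d (-6.14). The numbers in brackets are levels.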

How the results depend on the processing

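Of the 2880 genes called, 2102 were called after quantile normalization and 1397 with median scaling, none with the opposite sign. The slides, the dimmer agonist arrays and the scaling limit single calls. Normexp background correction called 6699 genes (4958 rose, 1741 fell) and no filter on dim probes 5404 (4442 rose, 962 fell). Of the 2880 genes called in the main fit, these 2 settings kept 2053 and 2824. Genes with a mean level above -2 alone, an alternative added after the data were seen, gave 1229 rises and 717 falls of 15118, and a fit of the 8 livers alone 1121 and 831. Leaving out 1 liver gave 1472 to 3161 called genes and 1782 to 2705 genes for the difference between the diets. With the replicate number as a block 2959 genes were called, and 2417 for the difference between the diets. Each liver's deviations correlated best with those of its own number, although the labels do not pair the samples. The replicate number is also the array's position on its slide, and what part position has was not tested. The submitters' table called 1617 genes with columns as labelled and 2574 with columns at the matching array, with 1383 for the difference between the diets in each case. At the matching array 1143 genes rose and 1431 fell, and only 1110 of the 2880 main calls were kept. As labelled, 314 of them were kept.

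Outside the table as labelled, direction changed for none of the 151 called genes among the 188 that the naming rule gave, and for at most 6 of the 188 in any alternative. As labelled it changed for 46, 31 of them called. The rule favours large changes and small adjusted p values. Over all 2880 called genes the sign changed for 45 with normexp, 27 in the table at the matching array and 25 with the mean over probes. In the table as labelled it changed for 792. The cause was not tested, here or for the counts above. Of the genes described here, the reversed values were with normexp Pck1 (-0.26), Mat1a (-0.16), Dbp (-0.19) and Saa1 (-0.09); with median scaling Fasn (-0.18), Pck1 (-0.15) and Saa1 (-0.33); after quantile normalization Pck1 (-0.14) and Saa1 (-0.09); with the mean over probes Ppargc1a (0.14); in the table at the matching array Pck1 (-0.59), Mat1a (-0.36), Dbp (-0.22), Saa1 (-0.06) and Gcgr (-0.01). Leaving out 1 liver gave ranges that cross 0 for Fasn (-0.80 to 0.84), Pck1 (-0.02 to 0.32) and Saa1 (-0.26 to 0.34). In the table as labelled, which sets MCD diet with agonist against arrays that the scanner files label standard diet with agonist, the reversed values were Uhrf1 (0.12), Ccnd1 (1.85), Atf3 (0.33), Myc (0.67), Nupr1 (1.46), Fgf21 (0.87), Asns (1.58), Psat1 (2.47), Inhbe (0.48), Enho (-0.54), Tnfrsf1a (0.16), Usp18 (0.01), Cd3e (-0.56), Jchain (0.37), Trem2 (1.88), Dcn (0.10), Timp1 (0.09), Cidec (2.55), Cd36 (1.88), Lcat (-0.20), Cyp3a44 (2.65), Cyp1a1 (0.09), Sult1e1 (5.57), Srxn1 (1.04), Haao (-0.96), Ahcy (-0.32), Gnmt (-0.05), Ppargc1a (0.39), Saa1 (-3.66) and Gcgr (-0.39).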
